A study of Homo sapiens with 6 samples.

Results

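ABC transporters were examined in WM164, a human melanoma cell line with the genotype BRAFV600E, by RNA sequencing of cells with an empty expression vector (EV) and cells with an HDAC8 expression vector. HDAC8 is a class I histone deacetylase. Both groups carry the BRAF mutation and a vector, and, as the study's methods describe, transfected cells were kept in hygromycin. Each group had 3 libraries, and neither the labels nor the methods say whether these came from separate transfections or clones, so p-values measure the spread between libraries of a single cell line. The ABC genes were taken as every protein-coding gene in the table whose symbol is ABC, a letter from A to G and a number. This gave 45 of 60504 genes, with 12 in subfamily ABCA, 9 in ABCB, 11 in ABCC, 4 in ABCD, 1 in ABCE, 3 in ABCF and 5 in ABCG. TAP1, TAP2 and CFTR are ABC proteins with other symbols and are described with the partner genes.

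ABC proteins bind and hydrolyse ATP with conserved nucleotide-binding domains, and most of them use that energy to move lipids, drugs, peptides, metals or conjugates across a membrane. Members of ABCE and ABCF have the nucleotide-binding domains without a membrane part and act in translation. In melanoma the family is best known for drug efflux pumps and for ABCB5, which was described as a marker of chemoresistant tumour-initiating cells. In pigment cells several members also work in lysosomes, mitochondria and peroxisomes, as they do in most tissues.

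Total counts ran from 34741083 to 42041462 per library and overlapped between the groups. The vector's own gene was not higher beyond the spread of the libraries: HDAC8 had normalized counts of 383.8, 404.4 and 478.8 in EV and 484.8, 445.5 and 473.7 in the libraries labelled HDAC8 (log2FC 0.15, SE 0.28; DESeq2 adjusted p = 0.856, where log2FC is the fitted log2 ratio of HDAC8 to EV). The transcript therefore does not check the labels. The study also probed HDAC8 protein by immunoblot in melanoma cells with either vector, which these counts do not measure. Below, "HDAC8" means the libraries labelled so. A normalized count is the count divided by the size factor of the library. Of 8 melanocyte-lineage markers, all but TYRP1 had counts in every library, and TYRP1 was at 0 in HDAC8 1 and HDAC8 2. MLANA averaged 8665 ± 367 normalized counts in EV and 303 ± 67.8 in HDAC8 (SD, n = 3), 28.7-fold lower. The summed level of these markers, mostly PMEL, was 244961 to 328761 normalized counts in EV and 137044 to 182218 in HDAC8. Of 5 immune markers, MS4A1 was at 0 throughout, PTPRC had a normalized count of 2.6 in HDAC8 1 and 0 in the others, and the summed level of 2301 to 3302 in EV and 4273 to 6165 in HDAC8 was nearly all CD68. Over 85.6% of its annotated exon length CD68 overlaps other genes, on both strands, and reads could be split between them. CD3E, a T cell gene, had no count in EV and normalized counts of 78.7, 91.1 and 50.1 in HDAC8. The summed level of 6 fibroblast markers was 2438 to 2955 in EV and 1161 to 2216 in HDAC8, mostly LUM, with DCN at 0. Endothelial markers summed to 97.5 to 202.9 in EV and 114.3 to 218.0 in HDAC8, and keratinocyte markers to 38.3 to 86.7 and 0 to 41.0. The part of these markers in the results below was not tested. HDAC8 1 stood apart from HDAC8 2 and HDAC8 3: the chi-square over degrees of freedom across genes was 153 and 102 for its pairs, against 26.0 for the other pair and 39.0 to 47.3 within EV.

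To determine which ABC genes differed, HDAC8 was compared with EV across all genes. Calls required an adjusted p below 0.05 together with a log2FC of 0.58 or more in either direction, which are the limits given in the methods of the study. The lipid transporters ABCA3 and ABCA13 and the cytosolic protein ABCF3 rose, and the multidrug exporter ABCB1 and the peroxisomal transporter ABCD2 fell. Of the 45 genes, 43 had enough counts to be tested and 40 received an adjusted p. The 3 rises were 7.5% of those 40, where 5.57% of all genes with an adjusted p were called higher. The 2 falls were 5%, where 5.44% of all genes were called lower. Among 14272 protein-coding genes with an adjusted p, 1035 were called higher and 945 lower. In either direction 12.5% of the ABC genes were called, against 13.9% of protein-coding genes with an adjusted p. Calls were thus about as frequent in the family as in the table. The median log2FC was 0.03 over the 43 tested genes and 0.00 over all 26162 genes tested, with 23 ABC genes above and 20 below 0. The groups did not overlap in 5 tested members with HDAC8 above EV and in 5 with HDAC8 below EV, 11.6% each, against 11.3% and 12.7% of all genes tested.

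ABCB1 (ENSG00000085563, chromosome 7, 87503017 to 87713323, minus strand) encodes P-glycoprotein, which pumps many unrelated drugs out of cells. Its normalized counts were 583.0, 477.2 and 729.0 in EV and 134.2, 49.2 and 107.8 in HDAC8. Every EV library was far above every HDAC8 library. The mean was 596.4 ± 126.4 against 97.1 ± 43.5 (SD, n = 3). ABCB1 was 6.13-fold lower in HDAC8, with a log2FC of -2.62 and an SE of 0.41 (DESeq2 adjusted p = 6.90e-09). The log2FC stayed between -2.93 and -2.29 in 12 alternatives and the gene was called in each. In these bulk libraries, fewer expressing cells and less transcript per cell cannot be told apart. ABCB4 lies next to ABCB1 on the same strand (chromosome 7, 87401696 to 87480435) and encodes a phosphatidylcholine transporter of the bile canaliculus. It had 28.3, 10.3 and 29.6 normalized counts in EV and 0, 8.2 and 12.0 in HDAC8, so the groups overlapped and it was not called (DESeq2 adjusted p = 0.599).

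ABCA3 (ENSG00000167972, chromosome 16, 2275881 to 2340746, minus strand) transports phospholipid into the lamellar bodies of lung epithelial cells, which are lysosome-related organelles. Normalized counts were 53.5, 91.5 and 149.7 in EV and 563.5, 299.1 and 559.7 in HDAC8. All HDAC8 libraries were above all EV libraries, with HDAC8 2 the lowest of them. The rise was 4.82-fold with a log2FC of 2.27 and an SE of 0.45 (DESeq2 adjusted p = 1.41e-05). The pseudogene ABCA17P, outside the family as defined here, starts from the opposite strand within the annotated span of ABCA3. Its normalized counts were 38.8, 35.5 and 13.8 in EV and 152.2, 110.6 and 67.5 in HDAC8, without overlap between the groups, although it was not called (DESeq2 adjusted p = 0.0644). No annotated exon of the pair overlaps, and it is not known whether the counting used strand.

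ABCA13 (ENSG00000179869, chromosome 7, 48171458 to 48647497, plus strand) has the longest annotated exon length of the ABC genes called, 19075 bases, and encodes a very large lipid transporter. Normalized counts rose from 240.1, 187.7 and 324.1 in EV to 634.5, 1089.7 and 937.6 in HDAC8. The groups did not overlap, and HDAC8 1 was the lowest of its group here, unlike in ABCA3. This was a 3.54-fold rise with a log2FC of 1.82 and an SE of 0.32 (DESeq2 adjusted p = 4.14e-07). Both ABCA3 and ABCA13 were called in all 12 of their alternatives, and both, like ABCB1, also passed when the change had to exceed the minimum of 0.58 by more than its error.

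ABCD2 and ABCF3 were less certain. ABCD2 (chromosome 12, 39550033 to 39619803, minus strand), which imports very long chain fatty acids into peroxisomes, had 38, 9 and 24 counts in the EV libraries and none in HDAC8. The EV mean of 24.0 ± 15.7 normalized counts (SD, n = 3) was 8.07 times a floor of 3 counts in each HDAC8 library (DESeq2 adjusted p = 0.0113). This ratio is not a lower bound, as it takes the EV mean as exact while EV libraries ran from 8.4 to 39.8. The call was lost with edgeR's quasi-likelihood test (adjusted p = 0.0691) and without EV replicate 1 or EV replicate 3, and when the change had to exceed 0.58 by more than its error. ABCD2 was not tested where 10 counts were required in every library. ABCF3 (chromosome 3, 184186095 to 184194012, plus strand) had normalized counts of 994.1, 1099.2 and 874.8 in EV and 1714.4, 1259.7 and 1520.2 in HDAC8. The groups did not overlap, and the log2FC of 0.60 lay just past the minimum, with an SE of 0.21 (DESeq2 adjusted p = 0.0393). ABCF3 was not called in 8 of 12 alternatives, among them edgeR (adjusted p = 0.0552) and the fits without any single EV library, HDAC8 1 or HDAC8 3, nor when the change had to exceed 0.58 by more than its error.

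**Figure D1:**
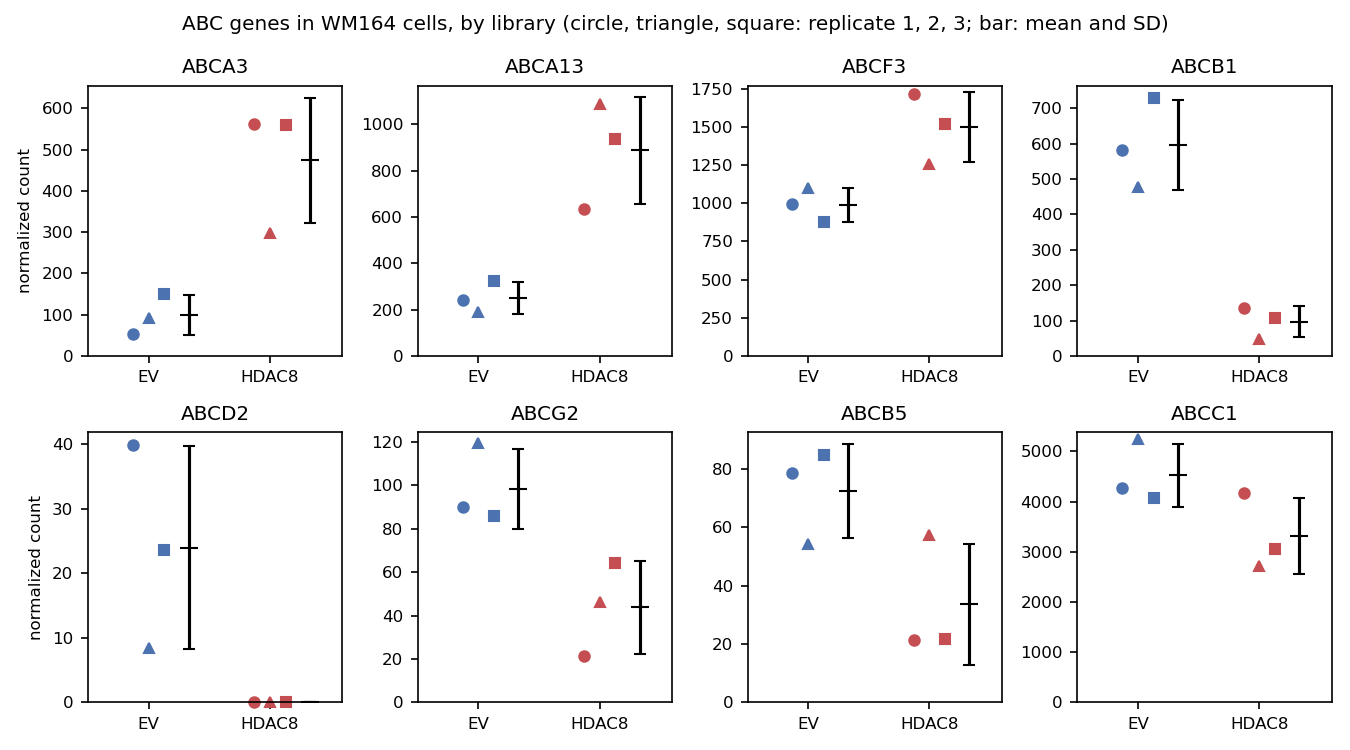
Normalized counts (vertical axes, each from 0) of 8 ABC genes in the 3 EV (blue) and 3 HDAC8 (red) libraries, with the mean and SD of each group as a black bar. ABCA3, ABCA13 and ABCF3 are higher in every HDAC8 library, ABCB1, ABCD2 and ABCG2 are lower in every HDAC8 library, and the groups overlap for ABCB5 and ABCC1.

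Jun and MITF were transcription factors of interest in the study, so the start regions of the ABC genes were searched for letters that these and general promoter factors can bind. RefSeq windows from 250 bases before to 50 bases after the start (GRCh38.p14) existed for 35 of the 45 genes. The upstream 250 bases of ABCB1 at its downstream annotated start and of ABCA3 are shown because these genes had the largest fall and the largest rise among ABC genes averaging 50 normalized counts or more. Capitals mark matches to TGANTCA (named AP-1 here), CACGTG and CATGTG (E-boxes, which MITF can bind), CCAAT and GGGCGG (GC box), each searched on both strands. TGANTCA, where N is any base, is a loose form of the site of Jun and Fos proteins, and stricter forms were not searched.
ABCB1, chr7:87600885-87601134, minus strand: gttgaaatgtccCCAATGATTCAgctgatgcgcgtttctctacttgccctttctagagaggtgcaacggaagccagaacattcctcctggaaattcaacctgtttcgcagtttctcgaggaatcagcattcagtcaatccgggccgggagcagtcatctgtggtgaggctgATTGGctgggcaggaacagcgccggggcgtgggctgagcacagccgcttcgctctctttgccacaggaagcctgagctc
ABCA3, chr16:2340729-2340978, minus strand: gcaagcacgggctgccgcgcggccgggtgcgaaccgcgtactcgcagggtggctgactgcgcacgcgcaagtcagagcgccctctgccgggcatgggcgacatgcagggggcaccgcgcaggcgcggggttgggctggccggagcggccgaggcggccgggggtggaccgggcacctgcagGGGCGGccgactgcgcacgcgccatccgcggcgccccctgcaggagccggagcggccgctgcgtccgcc

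The ABCB1 window held a match to the loose AP-1 pattern, TGATTCA, whose first base lay 234 bases before the start. This match shares a base with a CCAAT match, and an inverted CCAAT match lay 79 bases before the start. The window at the other annotated start of ABCB1 held none of these motifs. The ABCA3 window held a GC box 69 bases before the start, another after the start in the part not shown, and no AP-1 or E-box match. AP-1 matches were in windows of 6 of the 35 ABC genes (17.1%), against 7.71% of all 35116 windows and 9.37% of all genes with a window, and of the called genes ABCB1 and ABCD2, both lower in HDAC8, had one. CACGTG was in windows of 8 ABC genes (22.9%, against 7.26% of all windows and 8.77% of genes) and in none of the called ones, and CATGTG in 4 (11.4%, against 11.1% of windows and 13.4% of genes), ABCF3 among them. Genes with more than one annotated start have several windows. A match describes the letters and is not evidence of binding.

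Among the other drug and organic anion exporters no change was called, and the values differed in direction. ABCG2 encodes the breast cancer resistance protein, a broad exporter of drugs and porphyrins. It had normalized counts of 90.2, 119.5 and 85.7 in EV and 21.4, 46.1 and 64.2 in HDAC8, without overlap, and the change was not called (log2FC -1.17, 95% interval -2.54 to 0.21, DESeq2 adjusted p = 0.324). ABCC1, which exports glutathione conjugates, had 4264.7, 5240.3 and 4072.5 in EV and 4174.5, 2717.1 and 3055.6 in HDAC8. Its log2FC reached -0.45 with an SE of 0.19 (DESeq2 adjusted p = 0.101), and it was called lower only without HDAC8 replicate 1. ABCC2, another exporter of conjugates, had 3972.1, 4140.1 and 4774.9 in EV and 5353.7, 5023.5 and 5102.8 in HDAC8. These groups did not overlap, but the log2FC was 0.26 (95% interval -0.02 to 0.55, DESeq2 adjusted p = 0.252). ABCC5, an exporter of cyclic nucleotides and other anions, was at 0.44 (DESeq2 adjusted p = 0.113), also without overlap and at 0.24 without HDAC8 replicate 1, ABCC4 at -0.01 (95% interval -0.37 to 0.35) and ABCC10 at -0.09 (95% interval -0.71 to 0.52). ABCB1 was thus 1 call among the 11 genes of this group, 10 of which had an adjusted p. That was 10% of those 10, against 13.9% of protein-coding genes with an adjusted p.

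ABCB5 (chromosome 7, 20615667 to 20777038, plus strand) had normalized counts of 78.6, 54.2 and 84.7 in EV and 21.4, 57.4 and 21.8 in HDAC8. HDAC8 1 and HDAC8 3 were below all EV libraries and HDAC8 2 was not. Its log2FC of -1.11 was not called (95% interval -2.69 to 0.46, DESeq2 adjusted p = 0.452). At this depth the interval held both a fall of several fold and no change.

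The lipid exporters of the ABCA subfamily apart from ABCA3 and ABCA13 gave no calls. ABCA2, found in endolysosomes, was the ABCA gene with the highest level per length, and had 2549.2, 3771.2 and 2334.7 normalized counts in EV and 4425.9, 3290.6 and 3754.7 in HDAC8 (log2FC 0.41, DESeq2 adjusted p = 0.197). The groups overlapped through EV 2, and ABCA2 was called higher without EV replicate 2. ABCA5, a lysosomal member, was at -0.37 (DESeq2 adjusted p = 0.276, and -0.19 without HDAC8 1) and ABCA7, which moves phospholipids, at 0.03 (95% interval -0.53 to 0.60). ABCA1, the exporter of cholesterol to apolipoprotein A-I, had 68.2, 102.7 and 54.2 in EV and 114.6, 81.9 and 40.3 in HDAC8, with overlap (log2FC 0.07, 95% interval -1.27 to 1.42). ABCA4, the retinoid transporter of photoreceptors, had 114.8 ± 11.7 against 119.9 ± 66.3 normalized counts (SD, n = 3).

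ABCG1, which exports cholesterol to high-density lipoprotein, was close to absent. EV 2 had 1 count and HDAC8 2 had 20 counts, and the other 4 libraries had none, so no fold is given. ABCG4, ABCG5 and ABCG8, the other sterol exporters, had at most 39, 17 and 24 counts in any library. The ABCG subfamily was represented mainly by ABCG2 in these cells.

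Mitochondrial and lysosomal members of ABCB were well expressed and none of the 5 was called. ABCB10, an inner-membrane protein needed for haem synthesis, came closest. Its normalized counts of 695.2, 856.4 and 913.2 in EV and 428.4, 603.2 and 530.3 in HDAC8 did not overlap, and its log2FC reached -0.66 with an SE of 0.26 (DESeq2 adjusted p = 0.0758). ABCB10 was called lower when only genes with at least 10 counts in every library were tested. ABCB6, a porphyrin transporter with the highest level per length in its subfamily, had 1959.8, 2036.9 and 1545.7 in EV and 3285.2, 1935.6 and 1871.9 in HDAC8, so only HDAC8 1 was high (log2FC 0.36, DESeq2 adjusted p = 0.385, and 0.042 without that library). Over 54.6% of its annotated exon length, ABCB6 overlaps a same-strand gene, and reads could be split between them. ABCB8, of the inner mitochondrial membrane, was at 0.35 (DESeq2 adjusted p = 0.364) and ABCB9, a lysosomal peptide transporter, at 0.16 (DESeq2 adjusted p = 0.843). ABCB9 overlaps genes of the opposite strand over 24.6% of its exon length.

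In the ABCD subfamily, ABCD2 was the 1 call among 4 genes (25%, against 13.9% of protein-coding genes with an adjusted p). ABCD3, a peroxisomal importer of fatty acids, was at 0.23 (DESeq2 adjusted p = 0.527). ABCD4, which acts in the release of cobalamin from lysosomes, had 2105.6, 2332.0 and 2340.7 in EV and 4057.4, 1671.4 and 2706.0 in HDAC8. Its HDAC8 libraries lay on both sides of EV, and its log2FC of 0.32 (DESeq2 adjusted p = 0.519) became -0.048 without HDAC8 replicate 1, while it was called higher without HDAC8 replicate 2.

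Of the 4 members that act in translation 1 was called (25%, against 13.9% of protein-coding genes with an adjusted p). The median log2FC of the 4 was 0.41. ABCF1, which works with initiation factor eIF2, and ABCF2 were at 0.39 and 0.44 (DESeq2 adjusted p = 0.159 and 0.102), below the 0.60 of ABCF3. Without HDAC8 replicate 1 the log2FC of ABCF2 was 0.25. ABCF2 had the highest level per length of ABCF, with 2738.9, 3303.3 and 2767.2 in EV and 4939.8, 3257.8 and 3741.6 in HDAC8, and overlaps a read-through gene over 37.1% of its exon length. ABCE1, which splits ribosomes after termination, had 4661.0, 3966.4 and 5175.9 in EV and 3174.1, 5971.8 and 4904.6 in HDAC8. All EV values lay between the lowest and the highest HDAC8 value (log2FC 0.03, 95% interval -0.38 to 0.43).

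**Figure D2:**
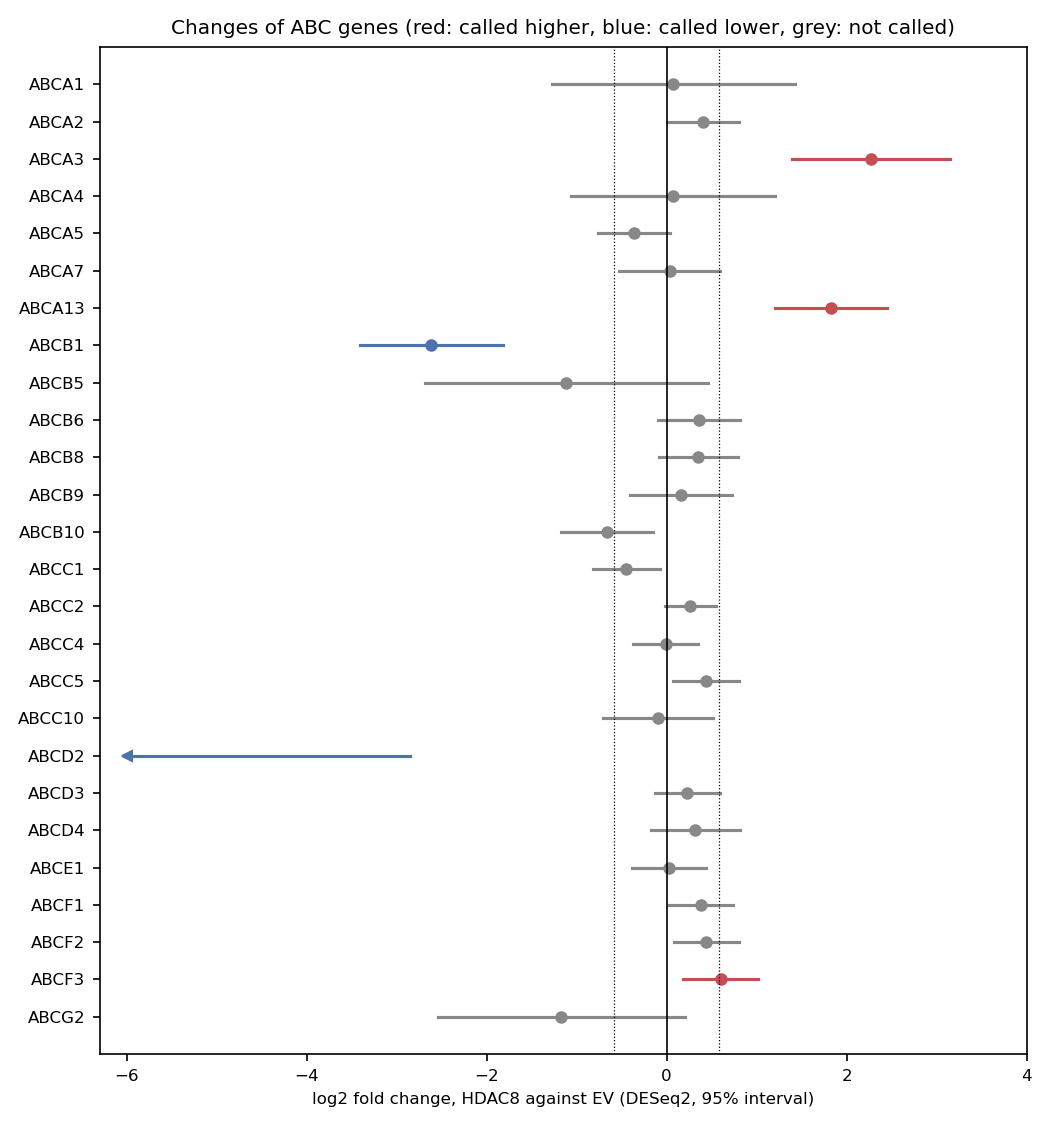
Log2 fold change of HDAC8 against EV (horizontal axis) with its 95% interval for 26 ABC genes that were called or averaged 50 normalized counts or more. ABCB1 and ABCD2 lie to the left and ABCA3, ABCA13 and ABCF3 to the right in colour, the arrow marks an interval that runs past -6 together with its estimate, and dotted lines mark the minimum of 0.58 on each side.

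Levels of different genes were compared as normalized counts per kilobase of annotated exon length. Among the well-expressed members, ABCE1 was at 736 ± 97.0 in EV and 749 ± 226 in HDAC8 (SD, n = 3), followed by ABCF2 with 569 ± 61.7 and 772 ± 168, ABCC2 with 548 ± 54.0 and 658 ± 22.0, ABCF1 with 521 ± 39.5 and 680 ± 120, and ABCC1 with 518 ± 71.7 and 380 ± 87.3. From ABCE1 to ABCF1 the libraries of neighbours in this order overlapped in both groups. ABCB1 was at 92.9 ± 19.7 in EV and 15.1 ± 6.8 in HDAC8, ABCA3 at 12.6 ± 6.2 and 60.7 ± 19.4, and ABCA13 at 13.1 ± 3.6 and 46.5 ± 12.1. ABCB1, ABCA3 and ABCA13 were thus below ABCE1, ABCF2, ABCC2, ABCF1 and ABCC1 in both groups.

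**Figure D3:**
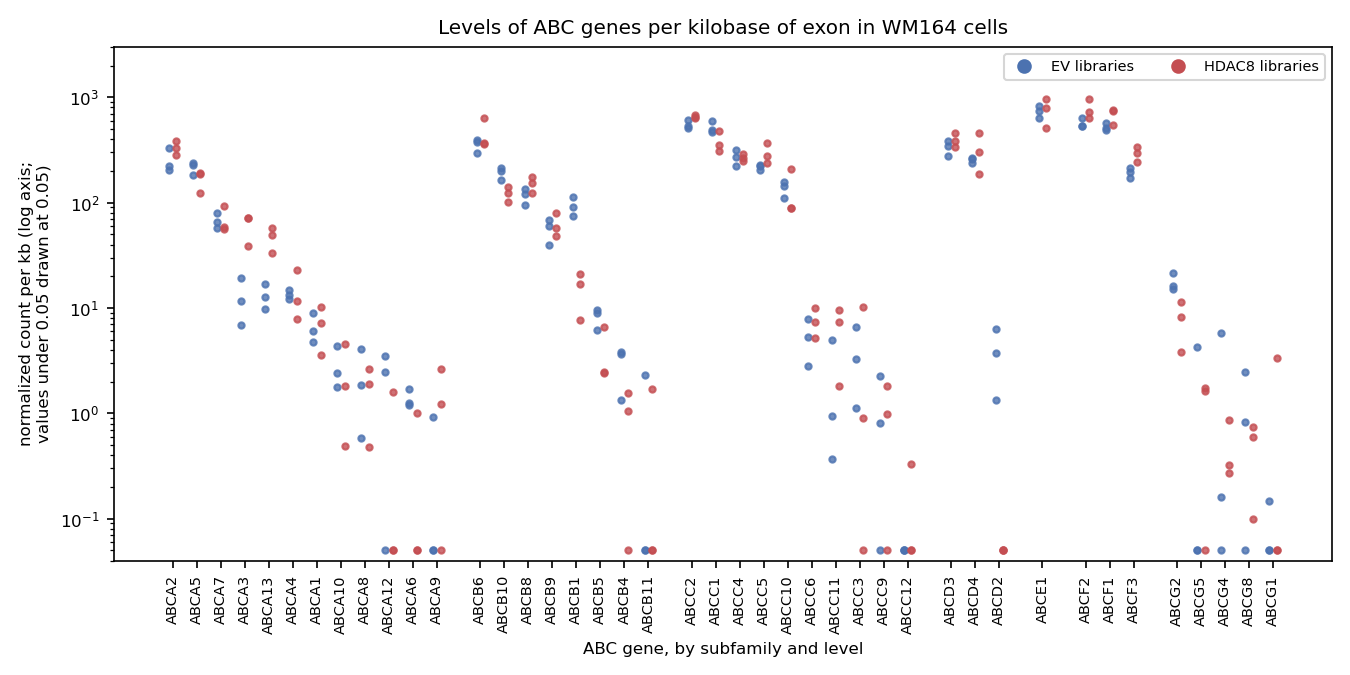
Normalized count per kilobase of exon (log axis) of 42 ABC genes with any count, in each EV (blue) and HDAC8 (red) library, grouped by subfamily and ordered by level. ABCE1 is at 736 in EV, the ABCB1 points separate downwards and the ABCA3 and ABCA13 points upwards in HDAC8, and genes at the lower edge had no count in that library.

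Of all 45 genes, 17 had a mean normalized count of at least 1000 over the 6 libraries, 10 had 50 to 1000, 14 had 5 to 50 and 4 had under 5. ABCC8, the sulfonylurea receptor of pancreatic beta cells, had no count in any library, which allows up to 2.57 to 3.27 normalized counts depending on the library. ABCC12 had 3 counts in HDAC8 3 and none elsewhere. ABCA6, ABCA8, ABCA9, ABCA10 and ABCA12 had at most 47 counts in any library, and ABCA6 was without counts in HDAC8 1 and HDAC8 2, with 13 counts in HDAC8 3 and 18 to 23 in each EV library. ABCC3, ABCC6, ABCC9 and ABCC11 had up to 95, 68, 38 and 95 counts, with groups that overlapped. ABCB11, the bile salt export pump, had 17 counts in EV 1, 12 in HDAC8 3 and none in the other libraries. ABCC6 has near-identical pseudogene copies, of which ABCC6P1 and ABCC6P2 had no count, and the counting may have moved reads among the copies. Of the 16 pseudogenes and antisense genes with ABC symbols, 12 had no count, ABCA11P had 210 counts in all, and ABCB10P1 and ABCF2P1 had 1 and 2.

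Within the HDAC8 group the family was not even. In 16 of the 27 ABC genes with a mean of at least 50 normalized counts (59.3%), HDAC8 1 was the highest of all 6 libraries, against 25.2% of the 14451 genes with that mean. The median log2 difference of these 27 genes from the EV mean was 0.55 in HDAC8 1, 0.08 in HDAC8 2 and 0.09 in HDAC8 3, while that of all 14451 genes was -0.01, 0.01 and 0.01. ABCB6, ABCC10 and ABCA4 were above all EV libraries in HDAC8 1 and in no other HDAC8 library. The transcripts of the mitochondrial genome took 4.46% of counts in HDAC8 1, 7.63% and 7.94% in the other HDAC8 libraries and 9.66% to 12.8% in EV, and their part in this pattern was not tested. ABC genes together took 0.170% of the counts of HDAC8 1, 0.133% and 0.142% of HDAC8 2 and HDAC8 3, and 0.126% to 0.132% in EV. ABCB1, ABCA3 and ABCA13 were called without HDAC8 replicate 1 as well, and ABCF3 was not.

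**Figure D4:**
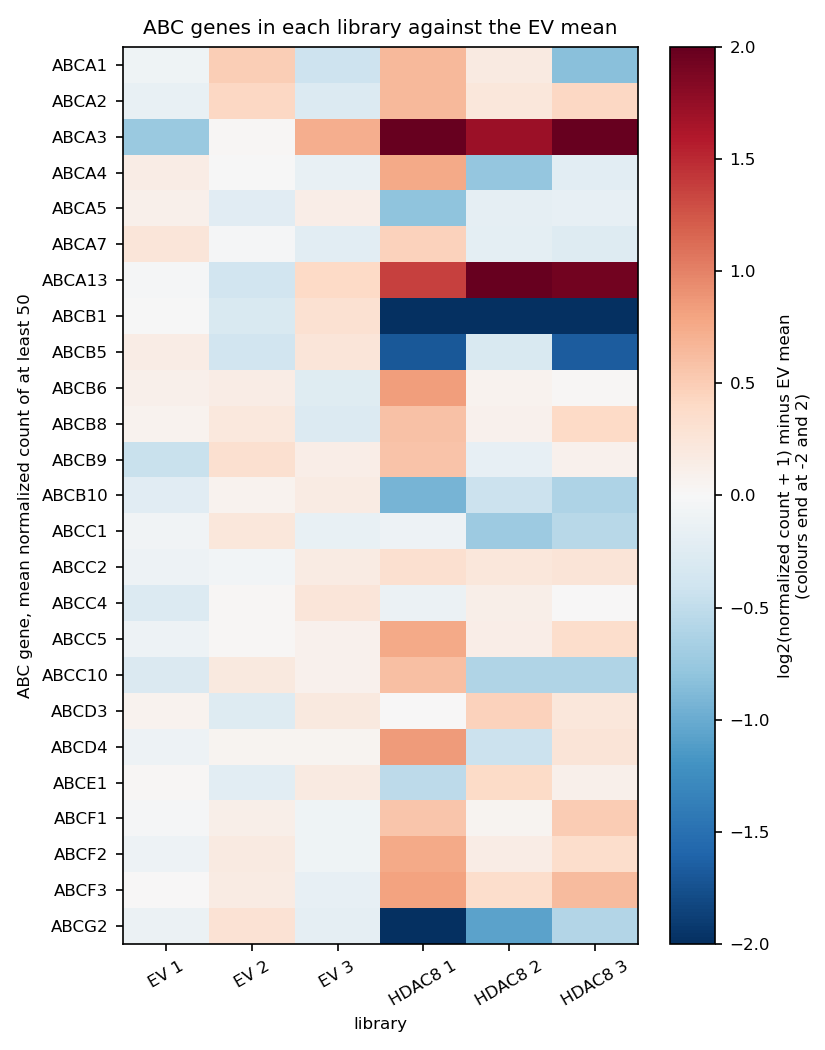
Log2(normalized count + 1) minus the EV mean for 25 ABC genes averaging 50 normalized counts or more (rows) in each library (columns), with colours that end at -2 and 2. ABCA3 and ABCA13 are red and ABCB1 is blue in all 3 HDAC8 libraries, while ABCA4, ABCA7 and ABCC10 are red in HDAC8 1 and blue in both other HDAC8 libraries.

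Genes that work with ABC proteins were followed in 8 lists, with 92 genes in the table and 85 with an adjusted p. Of these, 6 were called higher and 8 lower, 7.06% and 9.41%, against 5.57% and 5.44% of all genes. Among 14272 protein-coding genes with an adjusted p, 1035 were called higher and 945 lower. In either direction 16.5% of the partner genes were called, against 13.9% of protein-coding genes with an adjusted p. The median log2FC of the partner genes was -0.04. The lists are short, and none was tested as a set.

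Haem and iron-sulfur assembly, the setting of ABCB6 and ABCB10, had 1 rise and 3 falls among 19 genes (median log2FC -0.05). These calls were 21.1% of the list, against 13.9% of protein-coding genes with an adjusted p. CPOX, an enzyme of haem synthesis, averaged 2773.7 ± 89.2 in EV and 1566.0 ± 107.7 in HDAC8 (SD, n = 3; log2FC -0.82, DESeq2 adjusted p = 1.22e-05). ALAS1, the first enzyme of that pathway, fell by 0.75 on the log2 scale (DESeq2 adjusted p = 0.00337), and the cysteine desulfurase NFS1 by 0.73 (DESeq2 adjusted p = 0.00861). SLC25A37, the mitochondrial iron importer, rose by 0.60 (DESeq2 adjusted p = 6.53e-04). These 4 genes had groups that did not overlap. CPOX and ALAS1 stayed called whichever library was left out, whereas the call of NFS1 needed EV 3 and HDAC8 3 and that of SLC25A37 needed EV 3 and HDAC8 2.

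Sterol sensing and efflux, the setting of ABCA1 and ABCG1, had 1 rise and 2 falls among 14 genes, 13 with an adjusted p (median 0.19). These calls were 23.1% of the 13, against 13.9% of protein-coding genes with an adjusted p. APOE, an acceptor of exported cholesterol, had 14688.8, 21840.0 and 15545.3 normalized counts in EV and 8775.7, 5475.1 and 6663.3 in HDAC8 (log2FC -1.32, DESeq2 adjusted p = 4.15e-10). NR1H3, the nuclear receptor LXR alpha that activates ABCA1 and ABCG1, fell by 1.11 on the log2 scale (DESeq2 adjusted p = 0.0174), and the lipogenic factor SREBF1 rose by 0.68 (DESeq2 adjusted p = 0.0044). ABCA1 itself was not called. APOE stayed called whichever library was left out, NR1H3 was lost without any single EV library or HDAC8 2, and SREBF1 without EV 1, EV 3 or HDAC8 1.

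Peroxisomal fatty acid oxidation and membrane import, the setting of ABCD2 and ABCD3, had 2 rises and no fall among 15 genes, 14 with an adjusted p (median 0.06). These calls were 14.3% of the 14, against 13.9% of protein-coding genes with an adjusted p. AMACR, a racemase of branched-chain fatty acids, rose from 643.8, 640.7 and 620.6 to 1583.6, 1823.0 and 1298.0 normalized counts (log2FC 1.30, DESeq2 adjusted p = 7.21e-08), though 72.3% of its exon length is shared with other genes, a read-through gene among them. EHHADH, the bifunctional enzyme of peroxisomal oxidation, rose by 0.81 (DESeq2 adjusted p = 0.0247), a call lost without EV 1, EV 3, HDAC8 1 or HDAC8 3. AMACR stayed called whichever library was left out.

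Among 11 genes of ribosome recycling and the GCN pathway, where ABCE1 and the ABCF proteins act, 2 rose and 1 fell (median 0.11). These calls were 27.3% of the 11, against 13.9% of protein-coding genes with an adjusted p. PELO, which works with ABCE1 on stalled ribosomes, rose by 0.81 (DESeq2 adjusted p = 0.011), and ABTB1 by 1.04 (DESeq2 adjusted p = 0.027) with groups that overlapped. EIF2S2, a subunit of eIF2, fell by 0.85 on the log2 scale (DESeq2 adjusted p = 6.39e-07) and stayed called whichever library was left out. The call of PELO was lost without EV 1, EV 3 or HDAC8 3, and that of ABTB1 without these or HDAC8 1.

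Drug conjugation, other drug exporters and their regulators had no rise and 2 falls among 18 genes (median -0.46). The falls were 13.3% of the 15 genes with an adjusted p, where 5.44% of all genes were called lower. Among 14272 protein-coding genes with an adjusted p, 945 were called lower. In either direction the list also had 13.3% called, against 13.9% of protein-coding genes. The median covers 17 tested genes, GSTM1 and NR1I2 with mean normalized counts of 4.6 and 5.8 among them. SULT1A1, a sulfotransferase of phenols, fell from 129.0, 120.5 and 158.6 normalized counts to 6.0, 0 and 0 (DESeq2 adjusted p = 1.29e-07), but it has near-identical relatives that can share its reads. GSTO1, a glutathione transferase, fell by 0.65 on the log2 scale (DESeq2 adjusted p = 0.00371), a call lost without EV 1 or HDAC8 2. None of the 10 cobalamin genes (median -0.04) was called. KCNJ8 and KCNJ11, the pore subunits of the KATP channel, had at most 22.5 and 19.6 normalized counts. Neither received an adjusted p, so neither could be called. TAP1 and TAP2, which load peptides for HLA class I, had log2FCs of -0.77 and -0.28 (DESeq2 adjusted p = 0.209 and 0.369), and TAP1 was called lower without HDAC8 replicate 1. CFTR, the chloride channel, had 21.0, 2.8 and 0 normalized counts in EV and 20.5, 33.8 and 31.6 in HDAC8 (DESeq2 adjusted p = 0.54).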

How the data were processed

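RNA of WM164 cells was sequenced in 6 libraries, 3 per group, grouped and numbered as labelled. From trimmed reads (Trimmomatic) aligned by STAR, the authors estimated gene counts with RSEM and deposited these expected counts unscaled. Genome build, annotation release, duplicate removal and strand-specific counting are not given in the sources used here, so reads of overlapping, antisense and near-identical genes cannot be separated. Labels and study name different RNA extraction kits.

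Expected counts were rounded. The comparison used DESeq2 1.42.0 in R 4.3.3 (Wald test, two-sided, its own size factors, group as the single term) on the 26162 genes whose counts summed to 10 or more. Benjamini-Hochberg adjustment covered all genes. DESeq2 gave no adjusted p for 5141 genes, which were not called. Intervals are at the 95% level. The floor was 3 counts. Reads without molecular identifiers are not independent, so floors cover counting error only. Positions and union exon lengths were taken by Ensembl identifier (56558 found) from GENCODE 44 on GRCh38 and describe that annotation. Promoter windows are from RefSeq.

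The genes and lists were chosen with earlier results of these data known. Values in each library are given for called members, for the member with the highest level per length in each subfamily where reported, and for ABCB1, ABCB5, ABCC1, ABCG2, ABCA1 and ABCG1. Other members are given more briefly. Of the partner lists, called genes are named, at most 3 per direction and list, with TAP1, TAP2 and CFTR. ABCB4, ABCB10, ABCC2, ABCD4, ABCA17P, KCNJ8 and KCNJ11 were added after their values were seen. Alternatives were edgeR 4.0.16 (quasi-likelihood) and limma-voom 3.58.1, both with TMM, total-count size factors, no filter, a minimum of 10 counts per library, a replicate block, a null of the minimum change, and each library left out. The fits were tested on simulated data. Some members are counted in totals but not reported by name or drawn. Protein features of the members, also planned, were not analysed here. Library pairs within groups differed by more than sampling noise, so no library was counted more than once.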

Additional observations from a re-analysis of the deposited data

How the results depend on the processing

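The 3 ABC genes ABCA3, ABCA13 and ABCB1 were called in every alternative. With edgeR 1080 genes were called higher and 1045 lower, and 2 and 1 ABC genes. When the change had to exceed 0.58 by more than its error, a stricter requirement, 292 genes rose and 291 fell, and of ABC genes 2 rose and 1 fell. For libraries with the same number, deviations from group means had correlations of -0.03, -0.07 and 0.04. These gave no sign of pairing, but with 3 libraries per group they cannot settle whether such libraries shared a batch. A fit with a replicate block called 1075 genes higher and 1078 lower, and 2 ABC genes in each direction. Across fits that each left out a library, between 877 and 1218 genes rose and 746 to 1378 fell, 2 to 4 ABC genes were higher and 1 to 3 lower, and 1 to 6 partner genes were higher and 7 to 11 lower. The lowest count of higher partner genes was without EV replicate 3, where only AMACR remained. Without EV replicate 1 there were 2, and without HDAC8 replicate 1 or HDAC8 replicate 3 there were 3. Total-count size factors moved the median of all genes by 0.04 on the log2 scale.

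Genes that changed direction were uncalled both in the main analysis and there. Under limma-voom ABCA4 was at -0.0245 and ABCE1 at -0.0299, with total-count size factors ABCC4 was at 0.0336, and with the replicate block ABCA1 was at -0.0016, ABCA4 at -0.0702 and ABCE1 at -0.0145. Across the fits that each left out a library, log2 fold changes ran from -0.30 to 0.39 for ABCA1, -0.47 to 0.36 for ABCA4, -0.24 to 0.16 for ABCA7, -0.0715 to 0.33 for ABCB9, -0.62 to 0.11 for ABCC10, -0.14 to 0.11 for ABCC4, -0.0476 to 0.59 for ABCD4 and -0.18 to 0.24 for ABCE1. The cause was not tested. Depth limits the genes with means under 50 normalized counts, for which no fold change is given except for ABCD2, as a ratio to the floor.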
